A study of Chenopodium quinoa with 15 samples.

Results

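The Calvin cycle and photorespiration enzymes of quinoa (*Chenopodium quinoa*, variety NL-6) were examined as 1 group of genes across salt-treated leaf, leaf, stamen, pistil and root. A gene was included when its deposited protein annotation contained 1 of 13 enzyme names, in any case. This gave 30 of the 58522 annotated genes, of which 20 carried names of the Calvin cycle and 10 carried names of photorespiration. The names covered phosphoribulokinase (PRK), sedoheptulose-1,7-bisphosphatase (SBPase), fructose-1,6-bisphosphatase (FBPase), Rubisco activase, ribulose-phosphate 3-epimerase (RPE), phosphoglycerate kinase (PGK), phosphoglycolate phosphatase (PGLP), glycolate oxidase, glycine dehydrogenase (the P protein), the glycine cleavage H protein and glycerate 3-kinase (GLYK). The other 2 names, transketolase and serine hydroxymethyltransferase, matched no gene. Since 14223 genes (24.3%) carried a protein title that names a function, genes of these pathways that are annotated only as hypothetical proteins were not reached by the names.

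The Calvin cycle fixes carbon dioxide onto ribulose bisphosphate through Rubisco, reduces the product to sugar phosphates and regenerates the acceptor. When Rubisco takes oxygen in place of carbon dioxide it yields phosphoglycolate, and photorespiration returns the carbon of that product to the cycle through the chloroplast, the peroxisome and the mitochondrion. Both run in green cells in the light, and several of their reactions have counterparts outside the chloroplast that serve other pathways.

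The series held 15 RNA-seq libraries in 5 groups of 3 replicates. NaCl leaf came from seedlings 14 days old that had been submerged in 400 mM NaCl for 8 h, and leaf came from seedlings of the same age that received water instead. Stamen and pistil were dissected from flowers that had just opened. Root came from seedlings kept in the dark, 2 days old according to the sample labels and 3 days old according to the series description. No mutant or transgene was involved, all groups were NL-6, and each library pooled organs from several plants, so the values are averages over all cells of an organ. In such bulk samples fewer cells of a type and less RNA per cell cannot be told apart. The leaf libraries were grown in the light on soil and the root libraries in the dark on medium. Tissue, age and light therefore cannot be told apart in a comparison of these organs. According to the paper, stamen and pistil came from plants older than the leaf seedlings, so tissue and age cannot be told apart there either.

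Reads counted to genes numbered 12499775 to 17019602 per library. The 30 genes took 2.33 to 2.87% of them in NaCl leaf, 3.15 to 3.41% in leaf, 0.0306 to 0.0324% in stamen, 0.0792 to 0.102% in pistil and 0.0608 to 0.0651% in root. The tissue labels were checked with marker genes chosen by annotation. Of 40 tested leaf mesophyll markers (light-harvesting and photosystem proteins), 39 were highest in leaf. In the other lists, 14 of 26 pollen and anther markers were highest in stamen, 7 of 11 carpel markers in pistil and 17 of 34 root markers in root. The scaling of the libraries (TMM, trimmed mean of M values) was done separately for the 6 leaf libraries and for the 12 untreated libraries, so the scaled read counts (CPM) of untreated leaf differ a little between the salt and the tissue results.

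Of the 30 genes, 25 had enough reads to be tested in either comparison. The 5 that did not were 4 PGK models and 1 PGLP model. The PGK models CqNL-6_026567, CqNL-6_039465, CqNL-6_055919 and CqNL-6_055921 are short, with annotated lengths of 324 to 888 bases, and had between 0 and 15 reads in all NaCl leaf libraries together and between 0 and 10 in all leaf libraries together. The PGLP model CqNL-6_031646 had 3 reads in NaCl leaf and 1 read in leaf. Most tested genes were present as pairs: 22 of the 25 formed 11 pairs whose members share an annotation title and lie on different chromosomes. Quinoa is an allotetraploid, so such pairs are common. The sources used here do not give how reads matching both copies were counted, and the split of reads within a pair is uncertain for that reason.

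Levels were first compared between enzymes with the deposited FPKM, which divides by gene length and total reads. Rubisco activase, the chaperone that frees Rubisco of tightly bound sugar phosphates, stood far above the other enzymes. Its 4 genes summed to 3901 ± 491 FPKM in NaCl leaf and 5866 ± 245 FPKM in leaf (SD, n = 3 each). PRK, which makes the carbon dioxide acceptor ribulose bisphosphate, summed to 1526 ± 206 FPKM in NaCl leaf and 1941 ± 77.2 FPKM in leaf. Glycolate oxidase, the peroxisomal oxidase of photorespiration, summed to 1422 ± 183 FPKM in NaCl leaf and 1683 ± 93.1 FPKM in leaf. In untreated leaf the next levels were those of FBPase (1282 to 1430 FPKM), SBPase (1054 to 1175 FPKM) and H protein (997 to 1123 FPKM), and the ranges of the last pair overlapped. The P protein sum was 760 to 903 FPKM in leaf, that of RPE 628 to 673 FPKM and that of PGLP 219 to 234 FPKM. GLYK, the kinase that closes the photorespiratory route by making 3-phosphoglycerate, had 61.5 to 64.2 FPKM in leaf. The enzyme names miss some copies of a step and take in copies with cytoplasmic or other titles, so these sums are levels of the named genes and not of the steps.

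The salt comparison asked which of these genes changed in leaves after 8 h in 400 mM NaCl. Most of them were lower in NaCl leaf. Of the 25 tested genes 19 fell, 1 rose and 5 did not pass the test at an adjusted p of 0.05 (edgeR quasi-likelihood test with Benjamini-Hochberg adjustment over 29201 genes). Over all tested genes 22.8% were called lower and 24.0% were called higher. The Calvin cycle names gave 13 lower and 0 higher of 16 tested genes, and the photorespiration names gave 6 lower and 1 higher of 9. The median log2 fold change was -0.49 over the 25 genes and 0.04 over all tested genes. The changes were small: among the genes that fell, log2 fold changes ran between -1.13 and -0.32, and 1 gene fell to below 50% of its leaf level.

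Scaling bears on the size of these counts. With total library size in place of TMM, the median over all tested genes moved to 0.29 and the median over the 25 genes to -0.24, and the calls were 8 lower and 3 higher. The genes that fell with both scalings were PRK CqNL-6_005093, both SBPase genes, FBPase CqNL-6_017773 and CqNL-6_053192, Rubisco activase CqNL-6_009974 and CqNL-6_010728, and H protein CqNL-6_004947. Mesophyll markers moved in the same direction: their summed level was 41336 to 47778 CPM in NaCl leaf and 57315 to 65404 CPM in leaf, with 33 of 40 tested markers lower and 0 higher. The 30 genes summed to 21144 to 27079 CPM in NaCl leaf and 34046 to 37278 CPM in leaf. The part of the mesophyll level in the result was not tested. Among the 56 marker genes, 15 had no reads in leaf.

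**Figure D1:**
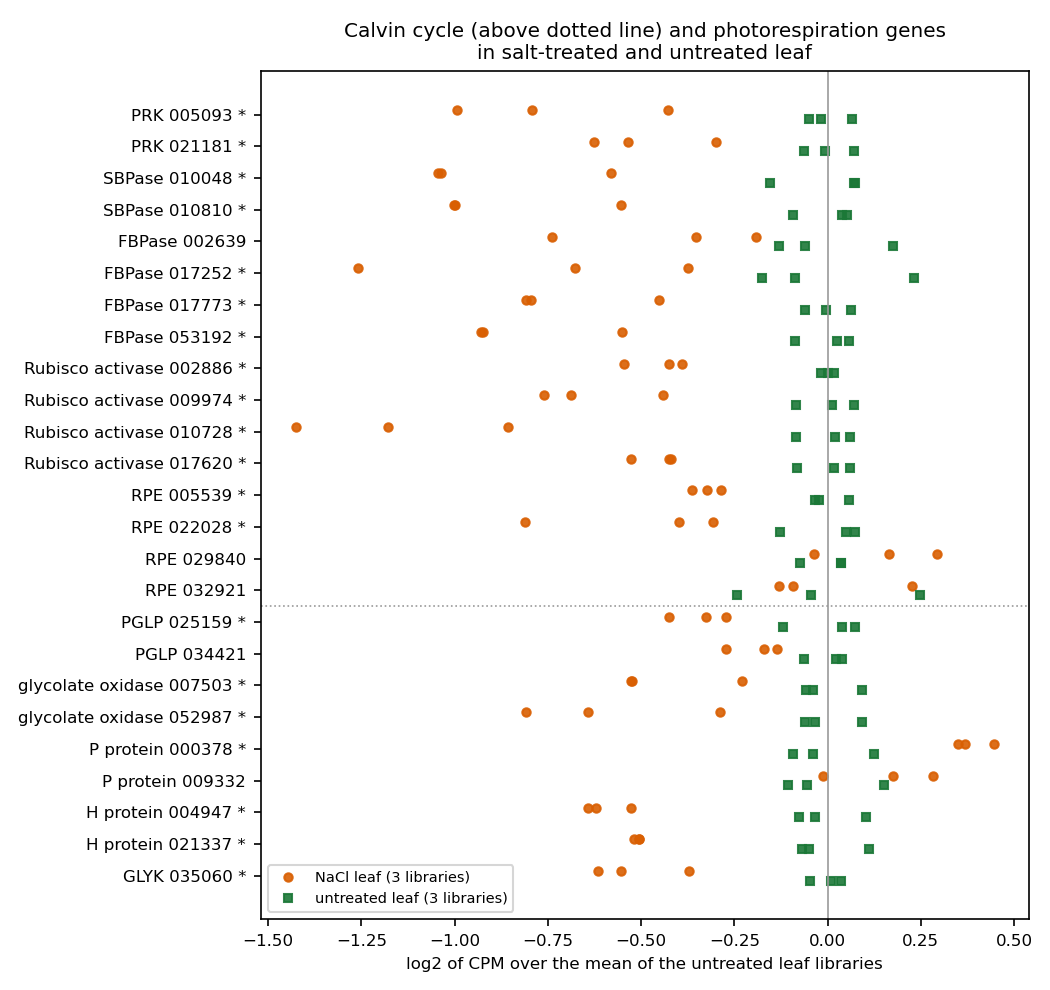
Each point is 1 library, placed by its CPM relative to the mean of the untreated leaf libraries of that gene, on a log2 scale. Orange circles are NaCl leaf and green squares are untreated leaf. Stars mark the 20 of 25 tested genes with an adjusted p under 0.05. Points of NaCl leaf lie left of those of leaf for 19 starred genes and right of them for P protein CqNL-6_000378.

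Rubisco activase held the largest fall among the 25 genes, and its main copies fell unequally. CqNL-6_010728 (chromosome 5, 4606213 to 4610444, + strand, NL-6 assembly) had 3575, 3012 and 4472 CPM in NaCl leaf, against 8437, 7633 and 8206 CPM in leaf. It fell by 1.13 ± 0.15 on the log2 scale (SE, adjusted p = 0.000437), to 45.6% of its leaf level. CqNL-6_009974 (chromosome 18, 4183563 to 4188139, + strand) had 5363, 5093 and 6364 CPM in NaCl leaf, against 9064, 8134 and 8705 CPM in leaf. It fell by 0.62 ± 0.13 on the log2 scale (adjusted p = 0.00325). In leaf the copies were nearly level, with 1.06 to 1.07 reads of CqNL-6_009974 for each read of CqNL-6_010728, and in NaCl leaf this ratio was 1.42 to 1.69. The ratio within a library does not depend on scaling, and its values did not overlap between the groups. Permuting the labels of the 6 libraries exactly gave p = 0.1 (two-sided) for the log2 ratio, which is the smallest value that 3 libraries against 3 allow.

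The other Rubisco activase pair was weakly expressed and its copies fell alike. CqNL-6_002886 averaged 51.1 ± 2.87 CPM in NaCl leaf and 69.9 ± 0.816 CPM in leaf (SD, n = 3 each), a log2 fold change of -0.45 (adjusted p = 0.00733). CqNL-6_017620 averaged 37.5 ± 1.53 CPM in NaCl leaf and 51.5 ± 2.58 CPM in leaf, a log2 fold change of -0.46 (adjusted p = 0.00768). Neither passed the test with total library size.

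Of the 8 tested genes of SBPase, FBPase and PRK, 7 fell and 1 FBPase gene did not pass the test. Over all tested genes 22.8% were called lower. These enzymes belong to the regeneration phase. RPE, also of this phase, is described below, where a pair fell slightly and the cytoplasmic pair did not pass the test. SBPase, which removes a phosphate from sedoheptulose bisphosphate in the regeneration phase, had 565, 568 and 779 CPM of CqNL-6_010048 in NaCl leaf, against 1222, 1045 and 1225 CPM in leaf. The other SBPase copy, CqNL-6_010810, had 602, 602 and 820 CPM in NaCl leaf, against 1248, 1129 and 1235 CPM in leaf. All NaCl libraries were below all leaf libraries for both copies, and replicate 3 was the highest of the NaCl libraries. The copies fell by 0.87 ± 0.15 (adjusted p = 0.00162) and 0.84 ± 0.15 (adjusted p = 0.00154) on the log2 scale.

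PRK CqNL-6_005093 had 1220, 1063 and 1572 CPM in NaCl leaf, against 2089, 2042 and 2210 CPM in leaf, and fell by 0.72 ± 0.15 on the log2 scale (adjusted p = 0.00409). Its copy CqNL-6_021181 had 1445, 1358 and 1703 CPM in NaCl leaf, against 2083, 2003 and 2199 CPM in leaf, and fell by 0.48 ± 0.12 (adjusted p = 0.0109). In leaf the log2 ratio of the copies was 0.00 to 0.03 and in NaCl leaf it was -0.35 to -0.12, so the groups did not overlap (exact permutation p = 0.1, two-sided).

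FBPase, the phosphatase that acts on fructose bisphosphate, was annotated under a pair of titles. Under the title fructose 1,6-bisphosphatase, CqNL-6_017773 averaged 747 ± 108 CPM in NaCl leaf and 1194 ± 51.5 CPM in leaf (log2 fold change -0.68, adjusted p = 0.00258). Its copy CqNL-6_053192 had 340, 339 and 441 CPM in NaCl leaf, against 657, 608 and 673 CPM in leaf (log2 fold change -0.79, adjusted p = 0.00142). The pair titled fructose-bisphosphatase was lower in level and more variable between NaCl libraries. CqNL-6_017252 had 293, 196 and 362 CPM in NaCl leaf, against 414, 441 and 550 CPM in leaf (log2 fold change -0.72, adjusted p = 0.0193), a call lost without leaf replicate 3 (adjusted p = 0.0831). CqNL-6_002639 had 307, 235 and 344 CPM in NaCl leaf, against 358, 376 and 443 CPM in leaf, and did not pass the test (log2 fold change -0.41 ± 0.16, adjusted p = 0.0582), although its groups did not overlap. Without NaCl replicate 3 it passed (adjusted p = 0.0224). Of 2 further FBPase genes found by KEGG number 0 were lower, with a median log2 fold change of 0.04.

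RPE interconverts xylulose and ribulose phosphates, in the chloroplast for the Calvin cycle and elsewhere for the pentose phosphate pathway. The pair titled ribulose-5-phosphate 3-epimerase was high in leaf and fell slightly. CqNL-6_005539 averaged 537 ± 14.5 CPM in NaCl leaf and 672 ± 23.4 CPM in leaf (log2 fold change -0.32, adjusted p = 0.0297). CqNL-6_022028 averaged 239 ± 42.2 CPM in NaCl leaf and 336 ± 25.0 CPM in leaf (log2 fold change -0.49, adjusted p = 0.0226). Without any single library other than NaCl replicate 3, CqNL-6_005539 no longer passed the test, with adjusted p of 0.052 to 0.0966. For CqNL-6_022028 this held without NaCl replicate 2, leaf replicate 1 or leaf replicate 3 (adjusted p of 0.055 to 0.073).

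The pair titled cytoplasmic isoform-like overlapped between the groups. CqNL-6_029840 had 17.1, 14.9 and 18.7 CPM in NaCl leaf, against 15.7, 15.7 and 14.5 CPM in leaf (log2 fold change 0.15 ± 0.14, adjusted p = 0.405). CqNL-6_032921 averaged 10.3 ± 1.46 CPM in NaCl leaf and 10.2 ± 1.77 CPM in leaf (log2 fold change 0.01 ± 0.18, adjusted p = 0.976). Scaling by total library size gave 0.40 for CqNL-6_029840, which was then called higher (adjusted p = 0.0325).

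**Figure D2:**
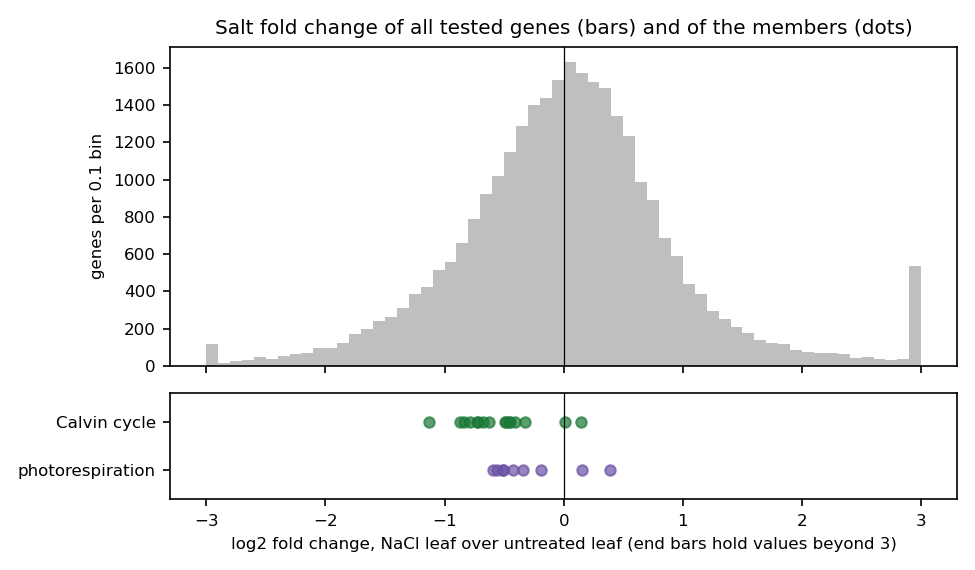
Bars count all 29201 tested genes by log2 fold change of NaCl leaf over untreated leaf in bins of 0.1, with values beyond 3 in the end bars, and dots give the 16 Calvin cycle and 9 photorespiration genes tested. Most dots lie left of 0, between -1.13 and 0.39, within the body of the distribution.

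Within photorespiration the enzymes moved unequally. PGLP removes the phosphate of phosphoglycolate in the first step. The leaf-type gene CqNL-6_034421, titled phosphoglycolate phosphatase 1B, chloroplastic-like, had 332, 340 and 309 CPM in NaCl leaf, against 379, 357 and 383 CPM in leaf. Its groups did not overlap, yet it did not pass the test (log2 fold change -0.19 ± 0.11, adjusted p = 0.171), and with total library size its sign turned (0.06). CqNL-6_025159, titled phosphoglycolate phosphatase 2, averaged 37.8 ± 2.01 CPM in NaCl leaf and 47.8 ± 3.38 CPM in leaf (log2 fold change -0.34, adjusted p = 0.0352). Leaving out NaCl replicate 1 or 2, or leaf replicate 1 or 3, ended that call (adjusted p of 0.0596 to 0.11).

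Glycolate oxidase, which yields glyoxylate and hydrogen peroxide in the peroxisome, fell in both genes found by title. CqNL-6_052987 (chromosome 12, 25963682 to 25969407, - strand) had 1228, 1096 and 1570 CPM in NaCl leaf, against 1872, 1840 and 2044 CPM in leaf (log2 fold change -0.56 ± 0.15, adjusted p = 0.0116). CqNL-6_007503 (chromosome 4, 20609892 to 20615489, - strand) had 1321, 1319 and 1621 CPM in NaCl leaf, against 1852, 1825 and 2028 CPM in leaf (log2 fold change -0.42 ± 0.13, adjusted p = 0.0208). The call for CqNL-6_007503 was lost without NaCl replicate 1, NaCl replicate 2 or leaf replicate 3 (adjusted p of 0.0636 to 0.0816). With total library size neither gene passed (adjusted p = 0.217 for CqNL-6_007503 and 0.0702 for CqNL-6_052987). Of 5 further tested genes found by KEGG number 1 was lower and 1 higher, beside 22.8% lower and 24.0% higher over all tested genes.

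Glycine decarboxylase is the mitochondrial complex that splits glycine and releases carbon dioxide and ammonia. Its P protein carries out the decarboxylation and its H protein carries the reaction intermediates between subunits. The genes of these subunits found by title went in opposite directions, though only 1 of the P protein genes passed the test. P protein CqNL-6_000378 (chromosome 10, 77786236 to 77793001, - strand) had 1893, 1866 and 1995 CPM in NaCl leaf, against 1374, 1426 and 1596 CPM in leaf. It was the 1 gene that rose (log2 fold change 0.39 ± 0.11, adjusted p = 0.0186). Its copy CqNL-6_009332 (chromosome 18, 11216188 to 11222966, - strand) had 1734, 1521 and 1867 CPM in NaCl leaf, against 1426, 1476 and 1704 CPM in leaf. The groups of the copy overlapped and it did not pass the test (log2 fold change 0.15 ± 0.13, adjusted p = 0.351).

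Both H protein genes found by title fell. CqNL-6_004947 had 411, 405 and 439 CPM in NaCl leaf, against 617, 599 and 679 CPM in leaf (log2 fold change -0.60 ± 0.11, adjusted p = 0.00216). CqNL-6_021337 had 511, 511 and 507 CPM in NaCl leaf, against 693, 702 and 784 CPM in leaf (log2 fold change -0.51 ± 0.11, adjusted p = 0.00434). Reads of both P protein genes divided by reads of both H protein genes were 3.93, 3.70 and 4.08 in NaCl leaf, against 2.14, 2.23 and 2.25 in leaf. This ratio is free of library scaling and did not overlap between the groups. Of 2 further H protein genes found by KEGG number 0 were lower and 0 were higher, with a median log2 fold change of 0.40. With these genes added, the P to H ratio was 3.67 to 4.06 in NaCl leaf and 2.13 to 2.25 in leaf. It counts reads and not proteins, and no test is given for it since it was formed after the values were seen. The call for the rise of CqNL-6_000378 was lost without leaf replicate 1 (log2 fold change 0.34, adjusted p = 0.0797). It was also lost without leaf replicate 2 (log2 fold change 0.36, adjusted p = 0.0782). Both P protein genes were called higher with total library size.

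GLYK CqNL-6_035060 had 76.8, 80.1 and 90.9 CPM in NaCl leaf, against 118, 114 and 121 CPM in leaf, and fell by 0.51 ± 0.11 on the log2 scale (adjusted p = 0.0054). Across the pathways, reads of the Calvin cycle genes divided by reads of the photorespiration genes were 2.03, 1.95 and 2.21 in NaCl leaf, against 3.33, 3.06 and 2.97 in leaf. In leaf Rubisco activase held 16848 of the 27160 CPM of the Calvin cycle genes, and P protein 3001 of the 8718 CPM of the photorespiration genes. In NaCl leaf Rubisco activase stood at 55.7% and P protein at 121% of their leaf levels. The ratio without these enzymes was not computed. The NaCl libraries also differed among themselves: replicate 3 was the highest NaCl library in 15 of the 19 genes that fell, and replicate 2 was the lowest in 15 of them. The mesophyll markers were likewise lowest in replicate 2 (41336 CPM), while replicates 1 and 3 were close (47417 and 47778 CPM). Without NaCl replicate 3 the test called 20 genes lower, and without leaf replicate 3 it called 14.

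Further genes were counted from annotation titles outside the enzyme names. The titles (Rubisco small subunit, glyceraldehyde phosphate dehydrogenase, aldolase, triose and ribose phosphate isomerases, CP12, carbonic anhydrase) also take in cytosolic and other forms that do not belong to the Calvin cycle. Of 31 tested genes under them 14 were lower in NaCl leaf and 5 were higher, with a median log2 fold change of -0.30, beside 22.8% lower and 24.0% higher over all tested genes. The 5 that rose were 4 carbonic anhydrases (CqNL-6_032618, CqNL-6_040837, CqNL-6_049173 and CqNL-6_049453) and the NADP-dependent glyceraldehyde-3-phosphate dehydrogenase CqNL-6_039641. Of 9 tested genes with other photorespiration titles 3 were lower and 2 were higher, which is near those shares. These titles likewise take in other forms, among them cytosolic glutamine synthetase, a tonoplast dicarboxylate transporter and D-3-phosphoglycerate dehydrogenase. The 3 that fell included CqNL-6_032507, titled glycerate dehydrogenase HPR, peroxisomal, which reduces hydroxypyruvate. Its log2 fold change was -0.60 ± 0.14 (adjusted p = 0.00695). The others were both genes of plastid glutamine synthetase 2, which recaptures the ammonia released by glycine decarboxylase. CqNL-6_055157 averaged 1075 ± 28.0 CPM in NaCl leaf and 1647 ± 87.6 CPM in leaf (log2 fold change -0.62 ± 0.11, adjusted p = 0.00156). CqNL-6_055558 averaged 1366 ± 24.9 CPM in NaCl leaf and 1815 ± 61.0 CPM in leaf (log2 fold change -0.41 ± 0.10, adjusted p = 0.0103). Of the 2 that rose, a cytosolic glutamine synthetase, CqNL-6_033117, averaged 92.8 ± 18.9 CPM in NaCl leaf and 27.0 ± 1.89 CPM in leaf (log2 fold change 1.78 ± 0.16, adjusted p = 7.13e-05). The other was CqNL-6_052630, titled D-3-phosphoglycerate dehydrogenase 1, chloroplastic-like (log2 fold change 0.66 ± 0.24, adjusted p = 0.0455). These genes were named after their values were seen.

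A second list was added after the data had been seen and took genes outside the enzyme names by KEGG orthology number, whatever their titles. It held 50 genes, of which 44 were tested in leaf. Of these 17 were lower and 3 higher, beside 22.8% lower and 24.0% higher over all tested genes. Transketolase, which moves carbon units between sugar phosphates, was found there. CqNL-6_026261 had 1061, 1055 and 1407 CPM in NaCl leaf, against 2115, 1970 and 2153 CPM in leaf, and CqNL-6_030890 had 1179, 1194 and 1602 CPM in NaCl leaf, against 2422, 2306 and 2483 CPM in leaf. Their log2 fold changes of -0.82 (adjusted p = 0.00136) and -0.86 (adjusted p = 0.00122) were close to those of SBPase. The other 2 transketolase genes were low in leaf and did not pass the test: the log2 fold change was -0.29 for CqNL-6_001032 (adjusted p = 0.196) and -0.43 for CqNL-6_001779 (adjusted p = 0.141).

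In the same list the KEGG numbers of serine hydroxymethyltransferase, which joins the products of glycine decarboxylase to serine, gave 10 tested genes, with 2 higher and 2 lower in NaCl leaf, near the shares over all tested genes. The most abundant of them, CqNL-6_013537, averaged 1556 ± 79.0 CPM in NaCl leaf and 1644 ± 151 CPM in leaf and did not pass the test (log2 fold change -0.08 ± 0.12, adjusted p = 0.602). For the T protein of glycine decarboxylase, CqNL-6_010946 fell slightly (log2 fold change -0.33, adjusted p = 0.0336) and CqNL-6_039805 did not pass the test (log2 fold change -0.25, adjusted p = 0.0889). Leaving out NaCl replicate 1 or any leaf replicate ended the call for CqNL-6_010946 (adjusted p of 0.0597 to 0.121). Reads of the P protein genes over reads of these T protein genes were 3.26, 2.77 and 3.42 in NaCl leaf, against 1.98, 2.18 and 2.21 in leaf, again without overlap. Serine-glyoxylate aminotransferase fell in both genes found: CqNL-6_034307 had 486, 312 and 681 CPM in NaCl leaf, against 1396, 1461 and 1617 CPM in leaf (log2 fold change -1.60 ± 0.24, adjusted p = 0.00076). For PGK the enzyme names reached only short models. By KEGG number it had 7 tested genes, with 3 lower and 0 higher (22.8% and 24.0% over all tested genes). The higher expressed of these, CqNL-6_045635, averaged 919 ± 75.6 CPM in NaCl leaf and 1220 ± 20.9 CPM in leaf (log2 fold change -0.41 ± 0.11, adjusted p = 0.0145). That call was lost without NaCl replicate 1 (adjusted p = 0.0502) or leaf replicate 3 (adjusted p = 0.0503).

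The tissue comparison asked in which of leaf, stamen, pistil and root each gene was highest. The call of highest required, against each of the other 3 tissues, an adjusted p under 0.05 and a log2 fold change of at least 1. Of the 25 tested genes 21 were highest in leaf, 1 in stamen, 0 in pistil and 0 in root, and 3 met no such call. Over 35954 tested genes the same calls took 11.1% for leaf, 20.0% for stamen, 6.03% for pistil and 10.4% for root. Among the 21 genes the smallest log2 fold change of leaf over another tissue was between 3.52 and 7.85, with a median of 5.60. Summed over these 21 genes, stamen held 1.06% of the leaf level, pistil 1.19% and root 0.925%. Mesophyll markers were at 0.233% of the leaf level in stamen, 1.71% in pistil and 0.0422% in root. In pistil, replicate 3 was the highest and replicate 1 the lowest library for both sums, and the part of green tissue in the pistil values was not tested. Pollen and anther markers were at 3.46% of their stamen level in pistil and at a like level, 3.37%, in root.

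Tissue levels outside leaf depend on scaling. The TMM factors were 0.835 to 0.850 in leaf, 0.477 to 0.494 in stamen, 1.73 to 1.78 in pistil and 1.36 to 1.42 in root. With total library size the median log2 fold change over all tested genes moved to 0.85 for leaf over stamen (0.06 with TMM), -1.20 for leaf over pistil (-0.14) and -0.76 for leaf over root (-0.02). The 21 genes highest in leaf were highest there with either scaling, while the order of the other tissues was not stable for several genes and is given with both values where it turned.

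**Figure D3:**
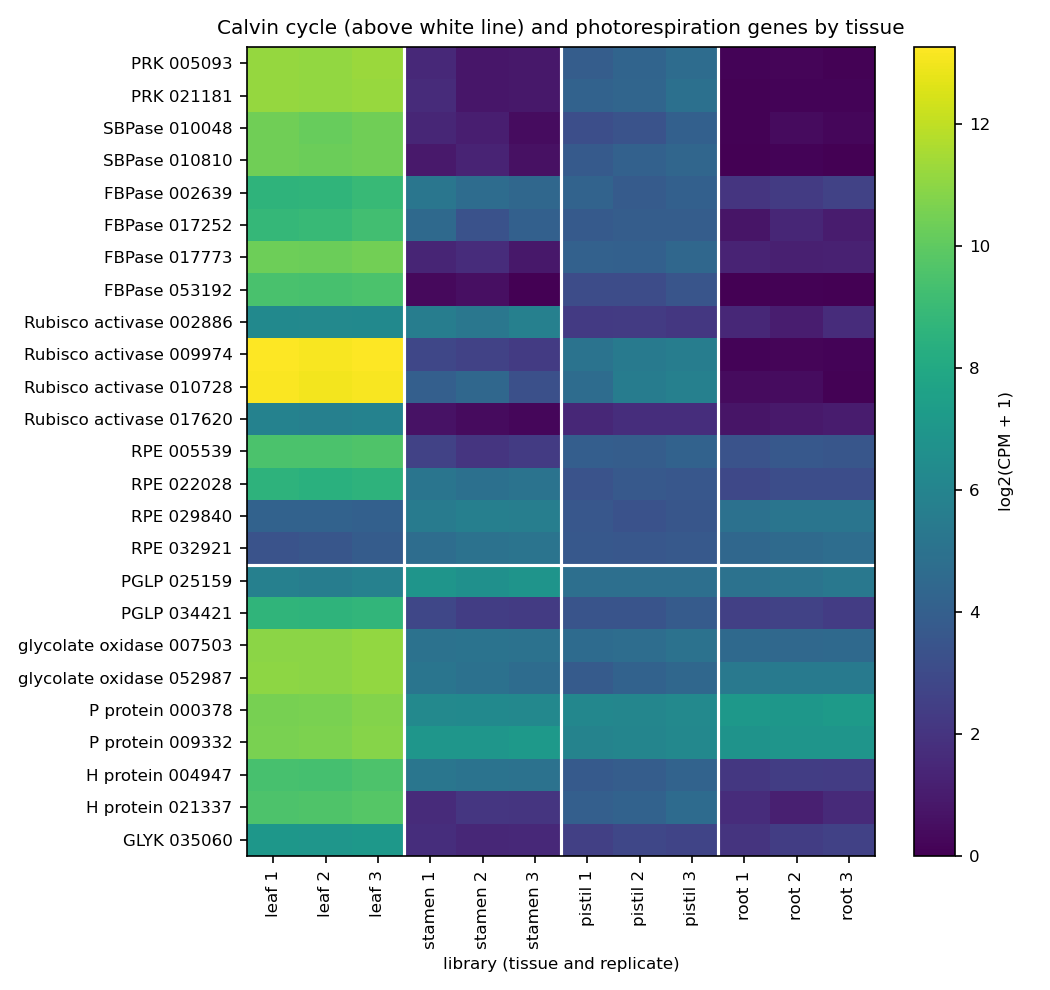
Each cell is 1 of the 12 untreated libraries (columns, by tissue) for 1 gene (rows, by enzyme), coloured by log2(CPM + 1). Leaf columns are brightest for the 21 genes called highest there, and the exceptions are Rubisco activase CqNL-6_002886, both cytoplasmic RPE genes and PGLP CqNL-6_025159.

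PRK, SBPase and the FBPase pair titled fructose 1,6-bisphosphatase, enzymes of the regeneration phase, were strongly leaf-biased. PRK CqNL-6_005093 had 2254, 2227 and 2419 CPM in leaf, 1.85, 0.733 and 0.839 CPM in stamen, 13.8, 18.1 and 24.8 CPM in pistil and at most 0.127 CPM in root. Its log2 fold change of leaf over pistil, the next tissue, was 6.93 ± 0.23 (adjusted p = 1.34e-14). SBPase CqNL-6_010048 averaged 1267 ± 110 CPM in leaf, 1.07 ± 0.693 CPM in stamen, 11.1 ± 4.14 CPM in pistil and 0.167 ± 0.123 CPM in root (SD, n = 3 each). For these genes the root values rest on 6 and 11 reads in all root libraries together, and the stamen values on 23 and 22 reads. FBPase CqNL-6_053192 had 5 reads in stamen and 1 read in root.

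The other FBPase title kept a low level in flowers. CqNL-6_002639 had 386, 410 and 485 CPM in leaf, 35.6, 25.1 and 20.8 CPM in stamen, 17.5, 13.2 and 15.6 CPM in pistil and 3.12, 3.89 and 5.17 CPM in root. With TMM the stamen level was above that in pistil by 0.82 on the log2 scale (adjusted p = 0.000656), and with total library size the difference turned to -1.04.

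The main Rubisco activase genes followed PRK, and a minor one did not. CqNL-6_009974 had 9780, 8871 and 9530 CPM in leaf, 5.99, 5.13 and 4.03 CPM in stamen, then 32.0, 42.0 and 47.9 CPM in pistil, and 7 reads in all root libraries together. CqNL-6_002886 had 76.3, 75.3 and 76.5 CPM in leaf, 47.5, 37.1 and 53.0 CPM in stamen, 3.73, 4.02 and 3.47 CPM in pistil and 1.76, 1.10 and 2.17 CPM in root. Leaf and stamen libraries of CqNL-6_002886 did not overlap, and leaf over stamen was 0.73 ± 0.14 on the log2 scale (adjusted p = 0.000118), under the minimum of 1. Scaled by total library size it was 1.53, and the gene was then called highest in leaf.

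Both cytoplasmic RPE genes were higher in stamen and root than in leaf. CqNL-6_029840 had 44.3, 51.3 and 49.3 CPM in stamen, with 30.3, 34.2 and 34.3 CPM in root, against 16.9, 17.1 and 15.9 CPM in leaf. Root over leaf was 0.98 ± 0.11 on the log2 scale (adjusted p = 3.49e-07). CqNL-6_032921 had 26.1, 30.6 and 33.2 CPM in stamen, with 20.6, 22.9 and 26.1 CPM in root, against 9.34, 10.8 and 13.3 CPM in leaf. Stamen and root both stayed above leaf with total library size, but the order of stamen and root turned: stamen over root was 0.55 and 0.37 for the 2 genes with TMM, and -0.98 and -1.16 with total library size.

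The PGLP genes differed in tissue. CqNL-6_034421 averaged 406 ± 15.3 CPM in leaf, 4.75 ± 1.21 CPM in stamen, 11.0 ± 1.70 CPM in pistil and 4.70 ± 0.474 CPM in root. CqNL-6_025159, titled phosphoglycolate phosphatase 2, was the 1 gene called highest in stamen. It had 118, 101 and 114 CPM in stamen, against 53.0, 47.9 and 55.1 CPM in leaf, 27.6, 27.7 and 27.3 CPM in pistil and 31.1, 33.3 and 38.8 CPM in root. Stamen over leaf was 1.10 ± 0.11 on the log2 scale (adjusted p = 3.83e-08). This is just above the minimum of 1, and the call was lost without stamen replicate 1 (0.94), without stamen replicate 3 (0.96) and with total library size (0.30).

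Glycolate oxidase was high in leaf and low, but measurable, elsewhere. CqNL-6_007503 averaged 2070 ± 130 CPM in leaf, 31.4 ± 0.956 CPM in stamen, 26.8 ± 3.70 CPM in pistil and 21.8 ± 0.605 CPM in root. Stamen and pistil did not differ beyond the test (log2 fold change 0.23, adjusted p = 0.144), and with total library size the sign turned (-1.63). Its copy CqNL-6_052987 averaged 2088 ± 130 CPM in leaf and 41.5 ± 1.08 CPM in root, where it was above the first copy in all libraries.

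The P and H protein genes found by title were both highest in leaf. P protein CqNL-6_000378 had 1483, 1556 and 1748 CPM in leaf, 74.3, 78.7 and 72.5 CPM in stamen, 69.4, 66.3 and 74.9 CPM in pistil and 135, 131 and 151 CPM in root. H protein CqNL-6_004947 had 666, 654 and 744 CPM in leaf, 36.2, 31.8 and 30.4 CPM in stamen, 12.5, 14.2 and 17.9 CPM in pistil and 3.37, 4.23 and 4.08 CPM in root. The KEGG list held 2 more H protein genes, which had their higher levels outside leaf. CqNL-6_039838 was called highest in root, at 50.0 ± 4.80 CPM, and CqNL-6_010913 averaged 3.62 ± 0.25 CPM in leaf, 23.7 ± 1.9 CPM in stamen, 5.81 ± 0.78 CPM in pistil and 30.9 ± 2.2 CPM in root. The P to H read ratio therefore depends on which H protein genes are counted. With the 2 genes found by title it was 2.14 to 2.25 in leaf, 5.21 to 6.21 in stamen, 3.53 to 4.69 in pistil and 44.4 to 45.7 in root. With all 4 it was 2.13 to 2.25 in leaf, 2.80 to 3.15 in stamen, 2.71 to 3.19 in pistil and 2.66 to 3.20 in root.

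Among the untested models, PGK CqNL-6_026567 had 38 reads in pistil, 4 in root and 0 in leaf and stamen, and PGLP CqNL-6_031646 had 7 reads in stamen and at most 2 in each other tissue. Transketolase by KEGG number comprised 2 genes highest in leaf and 2 highest in root. CqNL-6_001032 averaged 16.5 ± 1.66 CPM in leaf, 44.4 ± 5.30 CPM in stamen, 43.6 ± 6.97 CPM in pistil and 296 ± 7.89 CPM in root. CqNL-6_001779 averaged 9.99 ± 1.58 CPM in leaf and 355 ± 11.8 CPM in root. Of 33 tested genes with other Calvin cycle titles 16 were highest in leaf, 2 in stamen, 1 in pistil and 5 in root. Of 11 with other photorespiration titles 4 were highest in leaf, 1 in stamen, 0 in pistil and 3 in root. The shares over all tested genes were 11.1% for leaf, 20.0% for stamen, 6.03% for pistil and 10.4% for root.

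The balance between copies was then compared, since the ratio of copies within a library needs no scaling between libraries. The log2 ratio, with 0.5 added to each count, did not overlap between NaCl leaf and leaf in 6 of the 11 pairs, and between stamen and leaf in 8. The share of such pairs over all genes was not computed, so these counts are not read as a trait of these enzymes. Salt shifted the ratio by less than 0.5 in 10 pairs. Stamen shifted it by 1 or more in 6 pairs, among them FBPase CqNL-6_017773 over CqNL-6_053192, whose lesser copy had 5 reads in stamen. Shifts in root were not counted, but root was not like leaf in all pairs. For that FBPase pair the log2 ratio was 4.35 to 5.93 in root and 0.86 to 0.91 in leaf, with 1 read of the lesser copy in root. For FBPase CqNL-6_002639 over CqNL-6_017252 it was 1.19 to 2.37 in root and -0.31 to -0.21 in leaf. The smallest p of an exact permutation test (two-sided) was 0.1 with 3 libraries against 3, so no pair could pass 0.05.

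The widest shift was in the minor Rubisco activase pair, whose log2 ratio of CqNL-6_002886 over CqNL-6_017620 was 6.21 to 7.72 in stamen and 0.40 to 0.50 in leaf. In stamen the lesser copy had 7 reads in all. The RPE pair titled ribulose-5-phosphate 3-epimerase turned round. The log2 ratio of CqNL-6_005539 over CqNL-6_022028 was -3.19 to -2.73 in stamen and 0.91 to 1.10 in leaf. For the H protein pair the ratio of CqNL-6_004947 over CqNL-6_021337 was 3.22 to 4.04 in stamen and -0.23 to -0.17 in leaf, with 56 reads of the lesser copy in stamen. The P protein and the PRK pairs stayed within 1 on this scale in stamen.

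**Figure D4:**
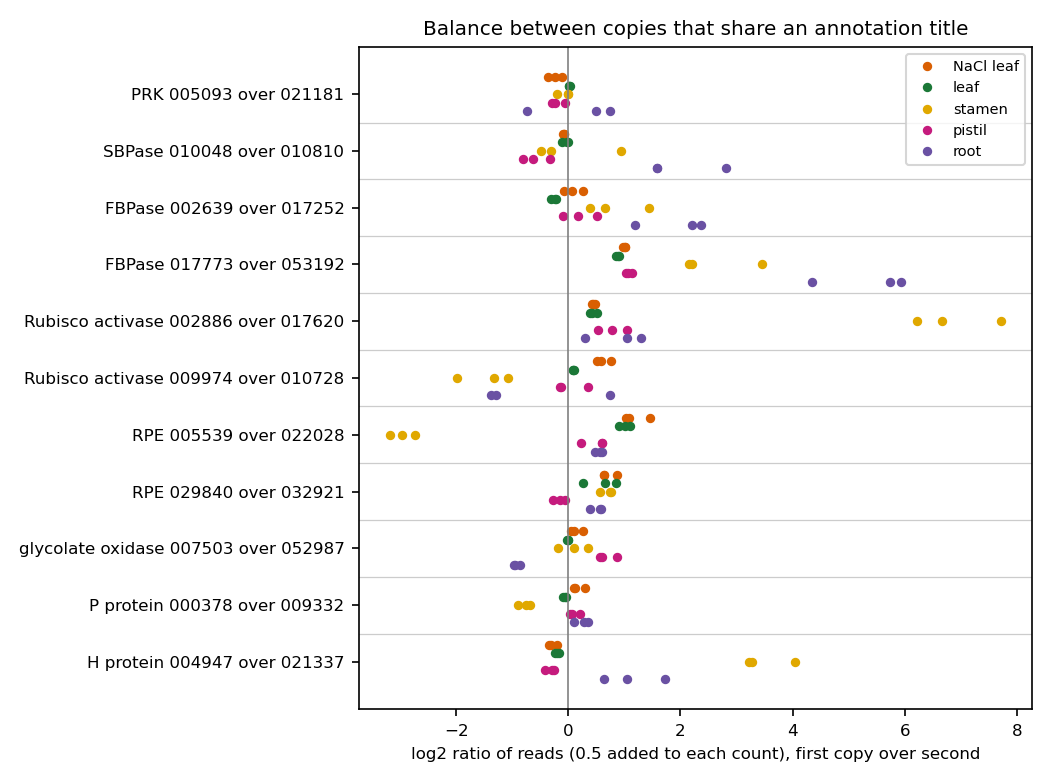
Points give the log2 ratio of reads of the copies of a pair, 1 point a library, coloured by group (NaCl leaf, leaf, stamen, pistil and root). Stamen points lie far from the leaf points for Rubisco activase CqNL-6_002886 over CqNL-6_017620, RPE CqNL-6_005539 over CqNL-6_022028 and H protein CqNL-6_004947 over CqNL-6_021337. Root points lie far from the leaf points for FBPase CqNL-6_017773 over CqNL-6_053192. NaCl leaf points stay near those of leaf.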

How the data were processed

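RNA was sequenced in 15 libraries, 3 for each of NaCl leaf, leaf, stamen, pistil and root. The authors aligned reads with HISAT2 2.1.0 (submitters' processing notes) to the genome of NL-6 and made counts per gene with HTSeq. The HTSeq version, strand setting and handling of multiply matching reads were not given in the sources. The deposited table holds these raw counts and the FPKM the authors derived from them. FPKM was used only to compare levels between genes.

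Counts were tested with edgeR 4.0.16 (quasi-likelihood, TMM, filterByExpr, Benjamini-Hochberg over all tested genes) in R 4.3.3, on the 6 leaf libraries for salt and the 12 untreated libraries for tissue. DESeq2 1.42.0, upper quartile scaling, total library size, no filter, all 15 libraries, the replicate number as a block, each library left out and other fold minimums were alternatives. The test was tried on simulated data. For salt (26958 genes) it recovered 61 of 100 simulated 2-fold changes and 93 of 100 simulated 4-fold changes, with 18 false calls. For tissue (26973 genes) it recovered 19 of 100 at 2-fold and 96 of 100 at 4-fold, with 0 false calls. A simulated 2-fold change lies exactly at the minimum log2 fold change of 1, so the low recovery and few false calls follow from that rule. All simulated libraries were drawn from the means in leaf with few genes changed. They therefore do not match the real contrasts, in which many genes change and the tissue libraries differ in scaling.

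Named genes were the 2 tested members of each enzyme name highest in leaf, up to 4 with the largest called rise and 4 with the largest called fall under salt, and those called highest outside leaf. This named 19 tested genes, and the other 6 were named after their values were seen. Members and lists were chosen with earlier results of these data known. The paper calls the replicates independent, each pooled from several plants or organs, while the labels do not say whether they were grown separately. The p-values measure the spread between these pooled samples. The available reference table is of another assembly and matched no member, so no sequence is given.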

Additional observations from a re-analysis of the deposited data

How the results depend on the processing

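The 21 calls of highest in leaf were the same count under every alternative except total library size and no minimum fold change (22 each), and the count for root was 0 under all. With total library size 8 genes were lower and 3 higher in NaCl leaf and 0 were highest in stamen. A minimum log2 fold change of 1 under salt left 1 lower and 0 higher. Without a filter 2 genes were highest in stamen and 1 in pistil, and without a minimum fold change 3 were highest in stamen. Leaving out 1 library at a time gave 14 to 20 lower and 0 to 1 higher genes in NaCl leaf, 21 to 21 highest in leaf, and 0 to 1 highest in stamen and in pistil. The pistil call was PGK CqNL-6_026567, which passed the read filter in those fits.

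Replicate numbers were not treated as a pairing. Deviations from the group means in same-numbered NaCl leaf and leaf libraries had correlations of -0.11, 0.01 and -0.00073. With 3 libraries in each group such values cannot exclude a pairing. With the replicate number as a block 18 genes were lower and 1 higher, and the tissue counts were 21, 1, 0 and 0.

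Signs turned as follows, and the cause was not tested. For CqNL-6_032921 under salt the log2 fold change was -0.036 with upper quartile scaling, -0.00023 without a filter, -0.022 with all 15 libraries, -0.0075 with DESeq2, and -0.13 to 0.14 with a library left out. With total library size it was 0.061 for CqNL-6_034421, 0.17 for CqNL-6_013537, 0.16 for CqNL-6_050872 and 0.00045 for CqNL-6_039805. For stamen over pistil total library size gave -1.04 for CqNL-6_002639, -1.61 for CqNL-6_017252, -0.32 for CqNL-6_022028, -1.63 for CqNL-6_007503 and -0.72 for CqNL-6_004947. For stamen over root it gave -0.98 for CqNL-6_029840, -1.16 for CqNL-6_032921 and -1.39 for CqNL-6_009332, and for leaf over root -0.14 for CqNL-6_025159. Upper quartile scaling gave -0.040 for CqNL-6_017252, -0.056 for CqNL-6_007503 and -0.041 for CqNL-6_009332 in those contrasts. Leaving out 1 library gave -0.14 to 0.49 for CqNL-6_017252 and -0.022 to 0.16 for CqNL-6_009332. Genes with few reads in stamen or root limit the fold changes given there. The P to H ratio with the KEGG genes was an alternative chosen after seeing the data.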
